A study of Mus musculus with 21 samples.

Results

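Fendrr is a long intergenic noncoding RNA gene on mouse chromosome 8, and its deletion was followed here in the lungs of mouse embryos at E14.5, where E stands for embryonic day. Expression was described over the genes that the authors' processing marked as testable in the comparison of the genotypes, 15860 of the 42760 listed. Wild-type embryos (linc-Foxf1a+/+) and homozygous knockout littermates (linc-Foxf1a-/-) had 2 RNA-seq libraries each, from whole lung. Values are FPKM, sequenced fragments scaled to transcript length and to the size of the library, with 1 pooled value per genotype. Where a pair of values is given without further words, wild type comes first and knockout second.

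The labels number the libraries 10 and 11 for wild type and 13 and 15 for knockout, and call the strain linc-Foxf1a, an earlier name of Fendrr. The targeted allele carries a lacZ reporter in place of most of the gene, followed by a loxP-flanked neomycin resistance gene under the hUb1 promoter. It was made in VGF1 embryonic stem cells, a hybrid of 129S6SvEv and C57BL/6N, and the mice were backcrossed once with C57BL/6J, so both genotypes carry a mixed background. The table used here gives 1 value per genotype and no counts, so depth is unknown. No standard deviation, interval or p-value is given below, and every comparison is a description of 4 libraries.

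FOXF1, encoded by Foxf1a, is a forkhead transcription factor of the splanchnic mesoderm that responds to hedgehog signals from the airway epithelium and is needed for lung mesenchyme and its vessels. Fendrr is transcribed away from Foxf1a out of a shared promoter region and has been found bound to the Polycomb complex PRC2, which methylates histone H3 on lysine 27 at silent developmental genes. At the pseudoglandular stage the lung is a branching epithelial tree of distal tips and proximal airways, embedded in a mesenchyme that gives rise to airway smooth muscle, pericytes and fibroblasts, laced with a capillary plexus and covered by mesothelium.

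The deletion spans chr8:123578782-123597965 of mm9 (NCBIM37), 19184 bp of a locus of 28151 bp, and leaves the transcription start of Fendrr in place. The sequences of the TaqMan probes that the study used to detect loss of the allele are shown because they lie at the ends of the deleted stretch. The probe near the start of the deleted stretch, read in the direction of transcription, matches chr8:123597887-123597910 on the minus strand. It lies 55 bases from that edge of the deletion, and the start of the gene itself lies outside the deletion. The probe near the end of the deleted stretch matches chr8:123578857-123578878, also on the minus strand, and lies 75 bases from the other edge. Both amplicons, of 75 and 79 bp, lie wholly in the deletion, and each oligonucleotide matched chromosome 8 at 1 place.
Probe near the start: caggactgcagagacacccttcac
Probe near the end: tcccacccaaaggagagacggt

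The promoter of Fendrr is not deleted, and its last 130 bases before the RefSeq start are given for chr8:123607011-123607140, minus strand of mm9. Capitals mark its only match among the motifs searched below, a MEF2 site that matches on both strands. It lies 106 to 97 bases before the start.
Fendrr promoter: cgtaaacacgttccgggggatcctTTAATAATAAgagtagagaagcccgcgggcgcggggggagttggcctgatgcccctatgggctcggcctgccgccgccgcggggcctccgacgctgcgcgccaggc

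Fendrr was close to 0 in knockout lungs. The row that covers the locus, linc-Cox4nb-4, was 38.4 and 0.04500 FPKM, 0.117% of the wild-type level. In the text below, a difference is log2(FPKM + 1) in knockout minus log2(FPKM + 1) in wild type, a scale on which low genes differ less than their ratio would say. On this scale the locus differed by -5.24. A second row at the same place, linc-Foxf1a-1, was at 0.352 and 0.01001 FPKM and was not among the testable genes.

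Most of the lung transcriptome was alike in both genotypes. The median difference over the 15860 genes was 0.00011, with quartiles at -0.091 and 0.084. A difference of at least 1 was seen upward in 74 genes (0.467%) and downward in 30 (0.189%), together 0.656% of genes. Differences above 0 held for 50.1% of genes and below 0 for 49.9%, which is the background for the list counts below. At the lower threshold of 0.5, 301 genes (1.9%) were higher and 204 (1.29%) lower in knockout. Differences were wider for low genes: the median absolute difference was 0.13 in 2006 genes under 1 FPKM and 0.064 in 6728 genes between 10 and 100 FPKM.

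The E18.5 brain comparison of the Peril strain and the E13.5 telencephalon comparison of the linc-Brn1b strain, each with 2 libraries a genotype, show how wide such differences were elsewhere in the study. In the Peril brain, 50 of 16897 genes (0.296%) were higher by at least 1 and 39 (0.231%) lower, together 0.527%, and 1.67% were higher and 1.18% lower by at least 0.5 (2.85% in all). There, 52% of genes lay above 0 and 48% below. In the linc-Brn1b telencephalon, 63 of 17660 (0.357%) were higher and 218 (1.23%) lower, together 1.59%, and 2.34% were higher and 5.76% lower by at least 0.5 (8.1% in all), with 60.3% of genes above 0 and 39.7% below. These comparisons share no libraries with the lung. Of the 30, 19 were testable in the Peril brain and 10 of those differed there by at least 1, 9 of them upward, and 11 of 20 differed in the linc-Brn1b telencephalon. The Y-linked genes Eif2s3y, Ddx3y, Uty and Kdm5d are among these, 4 genes that were higher in knockout in the Peril brain and lower in the telencephalon. Of the 74 genes higher in lung, 40 were testable in the Peril brain, of which 5 differed by at least 1, and 4 of 32 did so in the linc-Brn1b telencephalon.

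**Figure D1:**
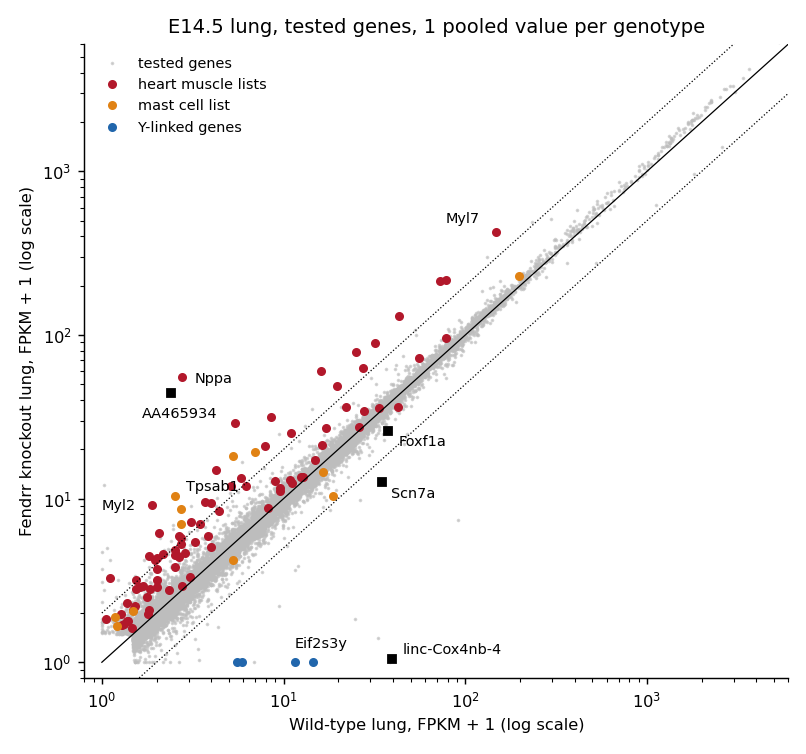
FPKM + 1 in wild-type lung (x axis, log scale) against Fendrr knockout lung (y axis, log scale) for 15860 testable genes, each a grey point with 1 pooled value per genotype; the solid line marks equality and dotted lines a difference of 1 either way. Heart muscle genes (red) lie above the diagonal, Vcl excepted, up to Myl7 at 147 and 422 FPKM, mast cell genes (orange) lie on both sides, Y-linked genes (blue) lie on the lower edge at 0 FPKM in knockout, and black squares mark AA465934, Foxf1a, Scn7a and linc-Cox4nb-4.

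Heart muscle genes made up the largest named group among the higher genes. There were 3 lists, of atrial genes, ventricular genes and genes of both chambers, with 84 testable members, of which 83 were higher in knockout and 1, Vcl, was lower. Of these, 57 (67.9%) differed by at least 0.5 and 31 (36.9%) by at least 1, against 1.9% and 0.467% of all genes. The 31 account for 41.9% of the 74 genes in that class. Of the listed members, 2 ventricular and 4 shared genes were not testable. A low gene could become testable through its level in knockout alone, so the 22 members at 10 FPKM or more in wild type are the firmer basis: their ratios of knockout to wild type ran from 0.851 to 3.94 with a median of 1.47. The summed level of the 84 genes was 960.5 and 2151 FPKM. Which cells carried these transcripts was not measured, and in whole tissue more cells of a type and more RNA per cell cannot be told apart. The same lists had medians of 0.09, -0.047 and -0.01 in the Peril brain, against 0.29, 0.90 and 0.83 in lung. In the linc-Brn1b telencephalon they were -0.082, 0.12 and 0.09, with 17 of 22 testable shared genes higher.

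Among the 22 heart genes at 10 FPKM or more in wild type, sarcomere genes of atrium and ventricle had the higher ratios. Myl7, the atrial regulatory light chain of myosin, was 147 and 422 FPKM, a ratio of 2.87. Myl4, the atrial essential light chain, was 71.3 and 213 FPKM (ratio 2.98). Actc1, cardiac alpha-actin, was 77.2 and 215 FPKM (ratio 2.79). The thin filament regulators Tnnt2 (41.9 and 129.9 FPKM) and Tnnc1 (30.9 and 88.03 FPKM) had ratios of 3.098 and 2.85. Myh6, the motor heavy chain of the atrium, was 24.1 and 77.5 FPKM (ratio 3.21). In all, 7 of the 22 had a ratio between 2.5 and 3.5. Others of like abundance had ratios nearer 1: Nexn, an actin-binding protein, was 77.5 and 94.5 FPKM (ratio 1.22), and Atp2a2, the calcium pump of the sarcoplasmic reticulum, 54.8 and 71.8 FPKM (ratio 1.31).

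Other heart genes departed from that ratio. Nppa, the atrial natriuretic peptide gene, was 1.77 and 54.2 FPKM, the highest difference of any gene named here (4.32, a ratio of 30.6). Its neighbour Nppb, which encodes the brain natriuretic peptide, was 0.103 and 2.25 FPKM (difference 1.56). Ankrd1, a titin-binding protein of the sarcomere, was 4.37 and 27.99 FPKM (ratio 6.402). Myl2, the ventricular regulatory light chain, was 0.884 and 8.16 FPKM (ratio 9.23), and Myl3, its essential partner, 0.827 and 3.45 FPKM. Csrp3, the muscle LIM protein, had a ratio of 3.94 and Sln, which inhibits the calcium pump of muscle, of 4.05. Cox6a2, the muscle subunit of cytochrome oxidase, was 3.27 and 13.9 FPKM, and Myoz2, a Z-disc protein, 1.07 and 5.19 FPKM. At the other end, Vcl (41.5 and 35.3 FPKM), Tbx5 (32.6 and 34.7 FPKM) and Mef2c (11.5 and 12.6 FPKM), which lung mesenchyme or vessels express too, had ratios of 0.851, 1.06 and 1.09.

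**Figure D2:**
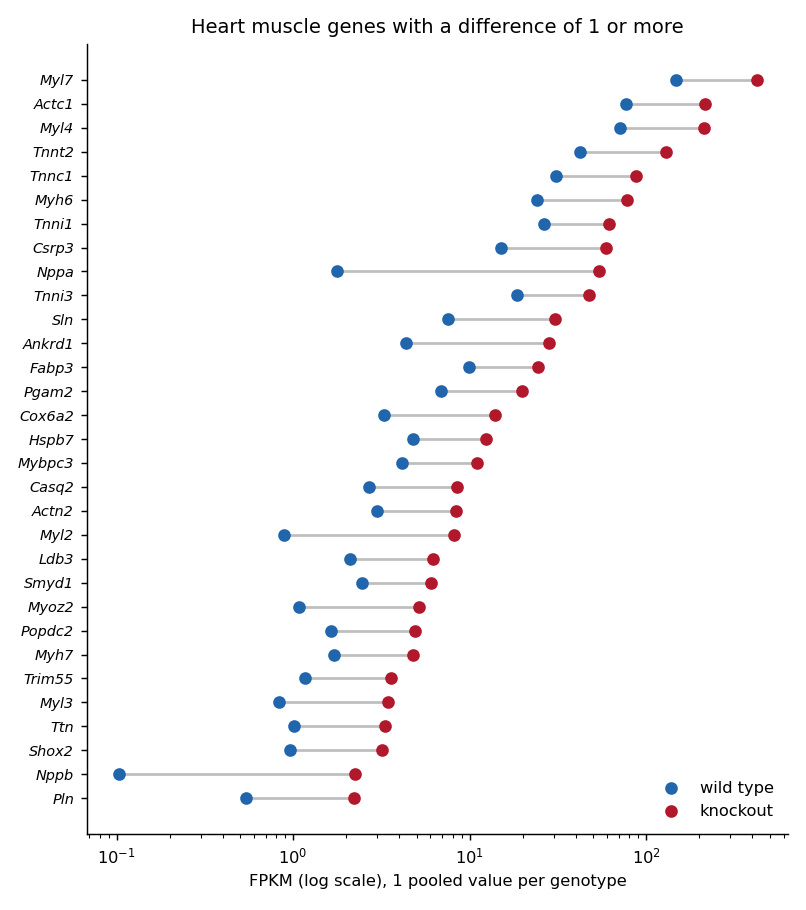
FPKM (x axis, log scale) of the 31 heart muscle genes with a difference of at least 1, in wild-type lung (blue) and Fendrr knockout lung (red), with 1 pooled value per genotype and no error bars. Every gene is higher in knockout, and Nppa, Myl2 and Nppb have the longest spans.

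Several transcription factors of the heart were low and higher in knockout. Gata4, a zinc finger activator of sarcomere genes, was 3.41 and 7.43 FPKM (difference 0.94). The T-box factor Tbx20 was 1.52 and 3.82 FPKM (0.94), Hand2 0.9998 and 2.17 FPKM (0.67), and Nkx2-5 0.515 and 1.196 FPKM (0.54). Shox2, a marker of the sinus node and pulmonary vein, was 0.959 and 3.202 FPKM (1.10). The general muscle regulators did not share this: Srf was 23.3 and 23.5 FPKM, Mef2a 23.2 and 23.6 FPKM and Myocd 2.62 and 2.41 FPKM. Over the list of 24 testable factors the median difference was 0.12, with 5 members at least 0.5 higher and 1, Foxf1a, at least 0.5 lower.

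Skeletal muscle genes were higher too. Of 46 listed members, 23 were testable and 21 of them higher (median 0.60), with 14 at least 0.5 higher and Ttn the only member shared with the heart lists. Here too a low gene could become testable through its level in knockout alone. The testable members had a median of only 1.196 FPKM in wild type. With every listed gene that had a value kept, the median difference was 0.12. Ckm, muscle creatine kinase, was 4.91 and 15.6 FPKM, Myl1, an alkali light chain, 8.396 and 23.97 FPKM, and Acta1, skeletal alpha-actin, 3.29 and 9.14 FPKM. Tnnc2 and Tnni2, troponins of fast skeletal muscle, were 1.196 and 3.83 FPKM and 1.16 and 2.67 FPKM, Mylpf, its regulatory light chain, 7.47 and 12.3 FPKM, and Casq1, its calsequestrin, 2.38 and 6.199 FPKM. Neb, nebulin, was 0.899 and 0.6096 FPKM. Several genes that define skeletal muscle were close to 0 in both genotypes. Myod1 was 0.1596 and 0.161 FPKM, Myf5 0.0611 and 0.0799 FPKM and Pax7 0.0133 and 0.0227 FPKM, and the fast heavy chains Myh1, Myh2, Myh4 and Myh8 were all at or under 0.0755 FPKM. Myog was 0.673 and 0.853 FPKM and the embryonic heavy chain Myh3 2.06 and 3.91 FPKM.

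Promoters of the heart genes are shown because these genes were higher together, and 65 of the 84 could be matched to a RefSeq promoter by symbol. The 250 bases before each start were searched on both strands for a CArG box, the site of serum response factor, for a MEF2 site, for CATTCC, a motif bound by TEAD factors, and for AGATAA, a motif bound by zinc finger factors such as Gata4. A CArG box stood before 15.4% of the heart genes with a promoter and 1.51% of the 9594 testable genes with a promoter, and a MEF2 site before 12.3% and 2.06%. CATTCC stood before 26.2% and 13.3%, and AGATAA before 27.7% and 7.29%. For the 28 heart genes with a promoter and a difference of at least 1, the 4 shares were 14.3%, 17.9%, 32.1% and 21.4%, 2 of them above and 2 below those of all heart genes. Over all 27025 gene symbols with a promoter the shares were 1.62%, 3.42%, 14.4% and 11.4%. The matches shown for the CArG box and the MEF2 site read on both strands. Each motif was counted once per gene symbol, over all of its promoter entries, and overlaps between motifs were not removed. A match is a run of letters and not a measured binding site.

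The promoters of Myl7, Actc1 and Ankrd1, with matches in their last 130 bases, and that of Nppa, with none in its 250 bases, are given on the strand of transcription. Capitals mark the motifs. In Myl7 (chr11:5798786-5798915, minus strand) they are CATTCC at 70 to 65 bases and a CArG box at 61 to 52 bases before the start. Actc1 (chr2:113878612-113878741, minus strand) has a CArG box at 47 to 38 bases. Ankrd1 (chr19:36194335-36194464, minus strand) has CATTCC on the opposite strand in its first capitals and AGATAA on the opposite strand at 47 to 42 bases. Nppa lies at chr4:147374701-147374830 on the plus strand.
Myl7 promoter: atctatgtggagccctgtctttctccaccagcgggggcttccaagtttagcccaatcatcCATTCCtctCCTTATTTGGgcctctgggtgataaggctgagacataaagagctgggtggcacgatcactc
Actc1 promoter: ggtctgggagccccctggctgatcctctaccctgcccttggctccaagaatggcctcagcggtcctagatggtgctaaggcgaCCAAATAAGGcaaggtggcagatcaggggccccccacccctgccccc
Ankrd1 promoter: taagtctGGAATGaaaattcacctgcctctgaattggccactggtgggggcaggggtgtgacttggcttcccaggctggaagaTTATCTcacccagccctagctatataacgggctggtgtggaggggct
Nppa promoter: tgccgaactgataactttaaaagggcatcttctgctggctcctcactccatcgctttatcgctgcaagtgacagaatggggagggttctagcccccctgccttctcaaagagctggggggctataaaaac

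Smooth muscle, the muscle that the lung does make at this stage around its airways and vessels, was near level as a group. Its 30 testable genes had a median difference of -0.011, with 14 higher and 16 lower. Acta2, smooth muscle alpha-actin, was 250.2 and 242 FPKM, and Tagln was 63.7 and 65.2 FPKM. Myh11, the smooth muscle myosin heavy chain, was lower (28.4 and 17.4 FPKM, difference -0.68), as were Actg2 (36.4 and 29.9 FPKM) and Synpo2 (3.17 and 2.32 FPKM). The 4 members at least 0.5 higher were Casq2, Pln, Pcp4l1 and Hspb1, of which Casq2 and Pln are also in the heart lists.

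Mast cell proteases and Hdc were higher in knockout. Tpsab1 and Tpsb2, tryptases, were 1.53 and 9.35 FPKM and 1.71 and 7.59 FPKM. Cma1, a chymase, was 4.27 and 17.3 FPKM, and Cpa3, the granule carboxypeptidase, 5.96 and 18.3 FPKM. Hdc, which makes histamine, was 1.71 and 5.95 FPKM. Their differences ran from 1.36 to 2.03. The whole list, in which Cd63 is much the most abundant member, summed to 250.3 and 315 FPKM, a ratio of 1.26. Other members differed from them. Srgn, the granule proteoglycan, was 15.49 and 13.6 FPKM and the transcription factor Gata2 4.29 and 3.23 FPKM. Kit, the stem cell factor receptor, was lower (17.8 and 9.32 FPKM, difference -0.86), Fcer1a is listed at 0 in both genotypes, and Ms4a2 was at 0.0378 and 0.0676 FPKM. Over the list, 12 members were testable, 9 were higher and 5 were higher by at least 1. As in the muscle lists, a low gene could become testable through its level in knockout alone. Low members among the 9 include Mcpt4 (0.177 and 0.892 FPKM) and Mcpt2 (0.215 and 0.658 FPKM). The tryptase rows cover neighbouring, similar genes on chromosome 17, between which reads may have been shared.

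Mesothelial genes were moderately higher. Of 15 testable members, 12 were higher (median 0.42) and 4 were at least 0.5 higher. Aldh1a2, which makes retinoic acid, was 22.96 and 37.3 FPKM, the uroplakin Upk3b 31.2 and 42.1 FPKM, and the transcription factor Wt1 5.21 and 7.704 FPKM. Tbx18, expressed in both epicardium and mesothelium, was 1.65 and 3.06 FPKM, and Msln, mesothelin, 2.97 and 4.21 FPKM. The 3 lower members, Podxl, Krt19 and Krt8, are also made by endothelium or airway epithelium. The whole list summed to 289.7 and 327 FPKM, a ratio of 1.13.

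**Figure D3:**
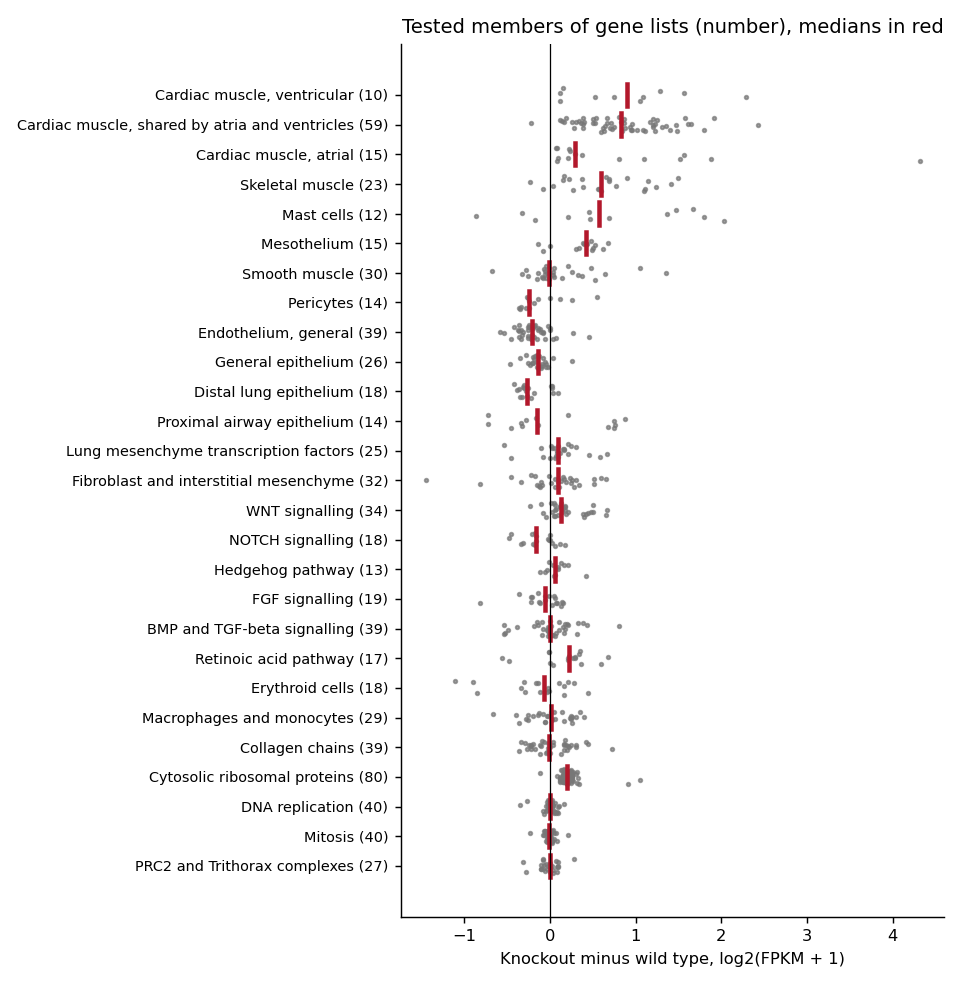
Difference in log2(FPKM + 1), knockout minus wild type (x axis), of each testable member (grey points) of 27 gene lists (y axis, number of members in brackets), with the list median as a red bar. The heart, skeletal muscle, mast cell and mesothelium medians lie between 0.29 and 0.90, while replication, mitosis and PRC2 lie at 0.

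Endothelial genes were lower by a small amount. Of 39 testable members of the general endothelial list, 34 were lower, with a median of -0.21, while 2 were at least 0.5 lower and 0 at least 0.5 higher. Cdh5, the cadherin of endothelial junctions, was 85.2 and 67.2 FPKM, Pecam1 79.5 and 69.4 FPKM and Kdr, the main VEGF receptor, 34.8 and 28.97 FPKM. The angiopoietin receptor genes Tek (24.01 and 18.4 FPKM) and Tie1 (46.3 and 35.7 FPKM) each differed by -0.37. The lowest were Sox17, an arterial transcription factor (8.97 and 5.65 FPKM, difference -0.59), and Calcrl, the adrenomedullin receptor (14.6 and 9.77 FPKM, -0.54). Plvap, Emcn and Eng differed by under 0.1, and Gpihbp1 (9.16 and 12.9 FPKM) and Vwf (4.67 and 5.83 FPKM) were higher.

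Genes of vessel subtypes and their signals were mixed. Among 20 arterial, venous and lymphatic genes the median was -0.03, with Mmrn1, a lymphatic gene, lowest (25.03 and 16.7 FPKM). Acvrl1, the ALK1 receptor of endothelium, was 28.6 and 19.5 FPKM (difference -0.53). Vegfa itself was 63.5 and 64.5 FPKM, and the 25 ligand and receptor genes of the VEGF, angiopoietin and PDGF list had a median of 0.021 (-0.055 with knockout scaled to the wild-type sum of testable genes). Of 14 pericyte genes 10 were lower (median -0.25): Pdgfrb was 35.2 and 27.5 FPKM and Cspg4 5.37 and 4.22 FPKM. The basement membrane collagens IV, which vessels and epithelium lay down, were lower in all 6 chains and summed to 323 and 274 FPKM. In the Peril brain and the linc-Brn1b telencephalon the same endothelial list had medians of -0.18 and -0.38, with 37 of 38 and 38 of 38 testable members lower. The pericyte list had medians of -0.11 and -0.21 in these 2 comparisons, with 11 of 14 and 11 of 13 testable members lower.

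The epithelium was present in both genotypes and slightly lower in knockout. In the general epithelial list 24 of 26 testable genes were lower (median -0.15) and 0 differed by 0.5 or more. The list was also lower in the Peril brain, in 14 of 15 testable members. Nkx2-1, the lung lineage factor, was 61.4 and 53.1 FPKM, Epcam 94.7 and 84.8 FPKM and Cdh1, E-cadherin, 44.2 and 34.4 FPKM. The distal lung epithelium list, which includes surfactant genes, had a median of -0.27, with 13 of 18 lower. Its 5 higher members were Sftpc, Bmp4, Etv5, Sox9 and Id2, with Sftpc the highest at 0.088. The progenitor factors were nearly equal, with Sox9 at 13.4 and 13.6 FPKM and Etv5 at 95.03 and 96.2 FPKM. Sftpc, the surfactant protein C gene that already marks distal epithelium at this stage, was 819 and 871 FPKM. Other distal genes were lower: Sftpb 25.4 and 18.8 FPKM, Abca3, the surfactant lipid transporter, 13.2 and 10.7 FPKM, and Cldn18 53.2 and 40.6 FPKM. The 11 alveolar type I genes had a median of -0.014, with 4 higher and 7 lower, among them Pdpn at 19.4 and 23.4 FPKM and Ager at 32.01 and 24.2 FPKM.

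Proximal airway genes split in opposite directions. Basal cell keratins were higher, Krt5 at 4.04 and 7.54 FPKM and Krt15 at 7.601 and 13.4 FPKM, while Trp63, which defines basal cells, was 1.47 and 1.85 FPKM. The neuroendocrine genes Calca (0.471 and 1.699 FPKM) and Chga (0.604 and 1.57 FPKM) were higher. Sox2, which marks the airway stalk, was 4.703 and 3.49 FPKM, Foxj1, the regulator of motile cilia, 2.21 and 1.34 FPKM, and Cldn10 21.5 and 12.6 FPKM. Of 14 testable genes, 5 were at least 0.5 higher and 2 at least 0.5 lower.

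**Figure D4:**
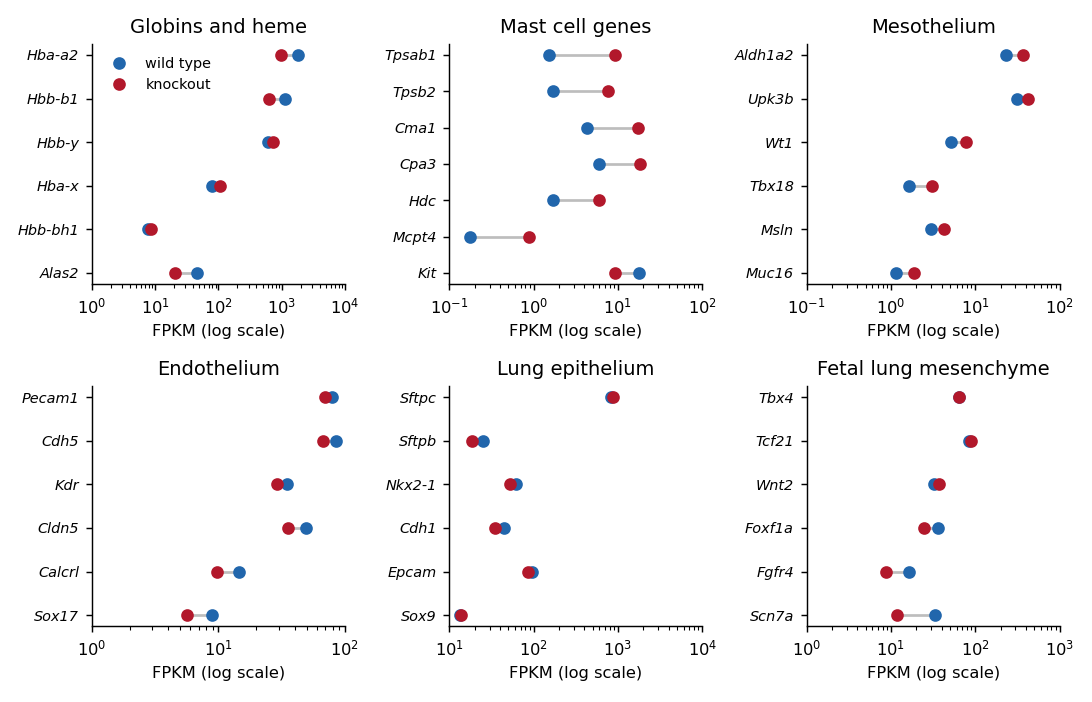
FPKM (x axis, log scale, with its own range in each panel) in wild-type lung (blue) and Fendrr knockout lung (red) for chosen genes of 6 groups, 1 pooled value per genotype and no error bars. Adult globins and Alas2 are lower and embryonic globins higher in knockout, mast cell granule genes are higher and Kit lower, and the named mesothelial and endothelial genes lie on opposite sides.

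Mesenchymal identity genes were largely level. Tbx4, a limb and lung mesenchyme factor, was 63.7 FPKM in both genotypes, Tcf21 was 83.7 and 89.5 FPKM and the signal Wnt2 32.6 and 37.1 FPKM. Foxf1a was 36.6 and 24.8 FPKM (difference -0.54), the lowest of the 25 mesenchymal factors, and its paralogue Foxf2 was 25.9 and 30.2 FPKM. Osr1 (8.86 and 14.7 FPKM) and Prrx1 (7.99 and 12.4 FPKM) were the highest. The median of the list was 0.091, with 20 members higher and 5 lower.

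Single fibroblast genes departed much further than their list. Scn7a, an atypical sodium channel gene, was 33.7 and 11.7 FPKM (difference -1.45). Fgfr4, a fibroblast growth factor receptor, was 16.2 and 8.78 FPKM (-0.82), and the other receptors Fgfr1 (26.3 and 28.9 FPKM), Fgfr2 (54.1 and 49.6 FPKM) and Fgfr3 (23.1 and 19.6 FPKM) differed less. Sfrp2 (40.8 and 64.9 FPKM), Lum (40.2 and 61.3 FPKM) and Dcn (135 and 192 FPKM), products of loose connective tissue, were higher. The fibrillar collagens Col1a1, Col1a2 and Col3a1 summed to 1286 and 1518 FPKM. Of the microfibril genes, Mfap4 was lower (364 and 273 FPKM) and Mfap2 and Mfap5 higher, and Eln, elastin, was 171 and 182 FPKM.

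Signalling pathways of branching had list medians between -0.16 and 0.22. Hedgehog genes had a median of 0.058 (-0.014 with knockout scaled to the wild-type sum of testable genes), with Shh, the epithelial ligand, at 16.6 and 15.9 FPKM, its receptor and target Ptch1 at 85.8 and 79.2 FPKM and Gli1 at 26.99 and 27.96 FPKM. FGF genes had a median of -0.055, and Fgf10, the mesenchymal ligand of bud outgrowth, was 11.6 and 12.99 FPKM. In the WNT list 30 of 34 testable genes were higher (median 0.13), of which 3, Sfrp1, Sfrp2 and Fzd10, were at least 0.5 higher. The secreted antagonists Sfrp1 and Wif1 were 18.01 and 25.9 FPKM and 4.86 and 7.19 FPKM, and the agonist Rspo2 was 5.64 and 8.37 FPKM. Axin2, a feedback target, was 13.2 and 15.1 FPKM. NOTCH genes were lower in 13 of 18 (median -0.16), with Heyl, a target in vascular smooth muscle, at 12.5 and 8.83 FPKM. The NOTCH list was lower in 12 of 20 testable members in the Peril brain (median -0.019). In the linc-Brn1b telencephalon it was lower in 15 of 20 (median -0.18). BMP and TGF-beta genes had a median of -0.0021, with Bmp4 at 27.8 and 28.5 FPKM. The retinoic acid list had a median of 0.22, with 12 of 17 testable genes higher, 2 of them, Aldh1a2 and Crabp1, by at least 0.5. Crabp1, a retinoic acid binding protein, was 12.8 and 19.8 FPKM. Aldh1a2 was higher, and Aldh1a1, another synthesizing enzyme, lower (15.02 and 9.82 FPKM).

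Red cell genes split by stage. The adult globins were lower in knockout, Hba-a2 at 1816 and 969 FPKM and Hbb-b1 at 1124 and 623 FPKM, and Alas2, the erythroid enzyme of heme synthesis, was 45.2 and 20.5 FPKM (difference -1.11). The embryonic globins of primitive red cells were higher, with Hbb-y at 605 and 734 FPKM, Hba-x at 78.8 and 108 FPKM and Hbb-bh1 at 7.64 and 8.69 FPKM. As sums, adult globins were at 0.542 of wild type and embryonic globins at 1.23 of wild type. The globin rows share much sequence within each cluster, so reads may have been split between them. Macrophage genes were level as a list (29 testable, median 0.013, or -0.050 with knockout scaled to the wild-type sum), with Csf1r at 11.2 and 10.1 FPKM. Liver genes were low in both genotypes and lower in knockout, Alb at 2.39 and 0.202 FPKM and Afp at 2.25 and 0.387 FPKM.

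Markers of neighbouring tissues were sparse. Pth, the parathyroid hormone gene, was 0.705 and 3.23 FPKM, the thymic enzyme Prss16 7.88 and 10.4 FPKM, and Tg, thyroglobulin, 0.0465 and 0.08002 FPKM. Cartilage genes were slightly higher (13 of 18, median 0.097), with Col2a1 at 8.73 and 12.04 FPKM and Matn1 at 0.0599 and 0.02002 FPKM. The neural list had a median of 0.086. Of the neighbouring tissue list 9 of 18 members were testable, of which 6 were higher. A low gene of this list, too, could become testable through its level in knockout alone. The part of neighbouring tissue in the heart, mesothelial and mast cell results was not tested.

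Housekeeping and growth programmes were level or nearly so. Of 80 cytosolic ribosomal protein genes, 79 were higher, by a median of 0.19, and of 80 nuclear genes of oxidative phosphorylation 76 were higher, with medians of 0.078 to 0.15 by complex. Replication (40 genes, median -0.00033) and mitosis (40 genes, median -0.017) were balanced, with Mki67 at 114 and 112 FPKM and Pcna at 332 and 343 FPKM. Igf2, the fetal growth factor, was 409 and 578 FPKM (difference 0.50), H19 from the same imprinted domain 9.67 and 8.25 FPKM. The PRC2 subunits Ezh2 (61.9 and 63.1 FPKM), Suz12 (33.6 and 33.7 FPKM) and Eed (28.4 and 29.8 FPKM) were nearly equal. Of 18 testable Hox genes, which PRC2 silences outside their domains, 16 were higher and 0 by 0.5 or more, with a list median of 0.20. The other 21 of 39 were not testable, and a low gene such as Hoxd8 (0.233 and 0.650 FPKM) could become testable through its level in knockout alone. With every listed Hox gene that had a value kept, the median was 0.089. The list was also higher in the Peril brain, in 15 of 15 testable members, with a larger median of 0.59. In the linc-Brn1b telencephalon 0 members were testable. Hoxa5, the Hox gene of lung mesenchyme, was 40.9 and 45.6 FPKM, while Hoxd10 to Hoxd13 were under 0.03 FPKM in both genotypes.

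Genes beside the deletion differed by under 0.5 apart from 3 genes. In a window of 1 Mb on each side, 23 genes other than Fendrr were testable, of which 3 (13.04%) differed by at least 0.5, all lower in knockout, against 3.18% of all genes. They were Foxf1a, linc-Slc7a5-AS (18.45 and 10.2 FPKM) and linc-Klhdc4 (2.49 and 1.401 FPKM). The last pair, with Slc7a5 itself (15.1 and 13.97 FPKM), are listed over 1 stretch about 778 kb away, so reads may have been split between them. Foxc2, the next forkhead gene, was 0.684 and 0.959 FPKM (difference 0.22) and Foxl1 2.57 and 1.91 FPKM (-0.30). Mthfsd, which lies next to Foxf1a, was 12.8 FPKM in wild type and 78.3% of that in knockout (-0.32). Within 5 Mb 5 of 122 genes (4.1%) and within 20 Mb 9 of 276 (3.26%) differed by at least 0.5. The 2 higher ones within 5 Mb were Rab4a and the muscle gene Acta1.

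**Figure D5:**
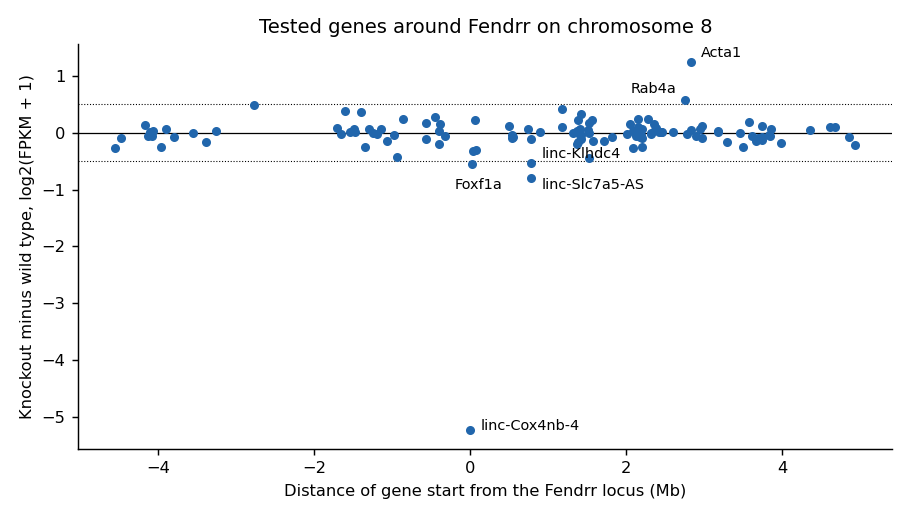
Difference in log2(FPKM + 1), knockout minus wild type (y axis), against the distance of each testable gene's start from the Fendrr locus in Mb (x axis), for linc-Cox4nb-4 and the 122 other genes within 5 Mb; dotted lines mark 0.5 either way. Only linc-Cox4nb-4 at the locus falls far below 0 (-5.24), Foxf1a, linc-Klhdc4 and linc-Slc7a5-AS lie between -0.54 and -0.79, and Acta1 and Rab4a lie above 0.5.

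The genotypes differed in sex-linked transcripts. The Y-linked genes Eif2s3y, Ddx3y, Uty and Kdm5d ran from 4.55 to 13.51 FPKM in wild type and are all listed at 0 in knockout, and Xist, expressed from the inactive X, was 52.02 and 106 FPKM. The pooled wild type thus held male RNA and the knockout none, and sex and genotype cannot be told apart for any gene. Of the 548 testable X-linked genes, 2.37% differed by at least 0.5, against 3.18% of autosomal ones. Leaving out X and Y left 73 genes at least 1 higher and 22 at least 1 lower.

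Genes outside the lists that differed most were a mixed set. AA465934, on chromosome 11, was 1.39 and 43.4 FPKM (difference 4.22) and 1810043H04Rik, on the same chromosome, 0.0245 and 11.1 FPKM. Tbx15, a T-box factor of mesenchyme, was 0.1096 and 3.196 FPKM. Hexdc, a hexosaminidase gene, was 25.2 and 8.84 FPKM (-1.41), and Glp1r, the glucagon-like peptide 1 receptor gene, 3.37 and 0.652 FPKM. Snora28 was 37.4 FPKM in wild type and listed at 0 in knockout, and Snora78 listed at 0 in wild type and at 3.72 FPKM in knockout. Several of these differed in the brain comparisons too: AA465934 by -2.30 in the Peril brain, and Snora28 by 1.81 there and 1.12 in the linc-Brn1b telencephalon. Dynlt1c, a dynein light chain gene, was listed at 0 in wild type and 2.73 FPKM in knockout lung and differed by -1.06 and -2.13 in those comparisons. By contrast, Scn7a, Ankrd1, Myl2 and Myl7 were not testable in either brain comparison.

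Some of the remaining genes are known by clone or computed names. Of the 30 genes lower by at least 1, 12 had Gm, Rik, linc or AK names and 8 were on X or Y, and of the 74 higher genes 10 had such names. The share of such names among all testable genes is not given here, so these counts do not show whether they were more frequent. On X, 0.730% of 548 testable genes differed by at least 1, and on Y 83.3% of 6, against 0.621% on autosomes. Gm6724 was 31.9 and 0.405 FPKM, Gm5506 90.4 and 6.45 FPKM, linc-Bola3 23.8 and 0.8501 FPKM and AK220028 5.88 FPKM and listed at 0 in knockout. Upward, linc-Zfp618-1 was 0.06598 and 4.002 FPKM, linc-Olfr161-AS 1.09 and 4.74 FPKM and AK217931 3.02 and 8.13 FPKM. NCX1 was 2.09 and 7.97 FPKM and is a second entry at the position of Slc8a1, the sodium-calcium exchanger of the ventricular list, which was 7.97 and 11.8 FPKM. BC100530 was 1.46 and 5.94 FPKM. Among lower genes, mKIAA0154 was 9.51 and 4.12 FPKM, mKIAA0970 1.65 and 0.000336 FPKM and Ube2j2 1.23 and 0.0527 FPKM. The entry nek2, at 1.59 and 0.134 FPKM, shares its position with Nek2, a mitotic kinase gene, which was 17.9 and 18.2 FPKM. Most genes named by the size of their difference share a position with at least 1 other entry, AA465934, Hexdc and Glp1r among them, so a difference there can be in how fragments were divided. The linc- names as a class, 1366 genes, had a median difference of -0.088 and 4.47% past 0.5, against 3.06% of the 14494 others, at a median level of 1.06 FPKM against 10.2 FPKM. A difference of at least 1 was seen in 1.02% of linc- names and 0.621% of the others.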

How the data were processed

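Whole lungs of E14.5 linc-Foxf1a+/+ and linc-Foxf1a-/- littermates were sequenced by the authors, with 2 libraries per genotype (Illumina TruSeq RNA kit, HiSeq, paired-end reads of 101 bp). The study aligned reads to mm9 with TopHat2 and quantified genes with Cufflinks 2.0.2 and Cuffdiff2 at default options. The authors deposited FPKM values, pooled to 1 value per gene and genotype, with a status per gene. Their fold change, test statistic, p, q and significance columns were not used. Strand use in counting was not given in the sources used here, so overlapping genes may share reads.

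Genes with status OK were kept, 15860 of 42760 (25964 were not tested by the authors, 924 had low data and 12 high data). The difference was log2(FPKM + 1) in knockout minus that in wild type, with a pseudocount of 1 FPKM and thresholds of 1 and 0.5 (pandas 2.3.3, numpy 2.4.6, Python 3.11.15, matplotlib 3.10.9). No test was possible with 1 value per genotype. The script was tested on simulated data. The genes named were the members of 56 lists, the 25 highest and 20 lowest differences at 1 FPKM or more in a genotype, and the 5 highest and 5 lowest among Gm, Rik, linc and AK names. Members and lists were chosen with earlier results of these data known. A few genes outside this rule, such as Rab4a, were named after their values were seen. Promoter sequences are from RefSeq and were located on NCBIM37 (mm9) by exact match. Other pseudocounts, filters and scalings were tried. Some items are not reported here.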

Additional observations from a re-analysis of the deposited data

How the results depend on the processing

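No paired analysis was possible because the files give 1 pooled value per genotype and the libraries share no replicate number, and leaving out each library was not possible for the same reason. Of 20 alternative values for the counts of genes 12 stayed within 1.5 times, and of 24 shares near Fendrr 14 stayed. Of 501 list medians 480 stayed and 0 reversed, but a reversal was counted only where the main median was at least 0.1 in size. A median also counted as stayed if it changed by no more than 0.1. Several smaller medians changed sign when knockout was scaled, such as Hedgehog (0.058 to -0.014). Of 433 values of named genes 409 stayed and 0 reversed, where a main difference under 1 always counted as stayed.

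With a pseudocount of 0.1 FPKM, 225 genes were at least 1 higher and 139 lower, the medians were 1.43 for mast cells, 0.40 for thyroid, thymus and oesophagus, -1.14 for liver and -6.19 for Y-linked genes, and the shares past 0.5 were 13.9% within 5 Mb and 10.9% within 20 Mb of Fendrr. With 5 FPKM, 25 were higher and 14 lower, the heart medians were 0.16 (atrial), 0.38 (ventricular) and 0.36 (shared), and the others were 0.32 for skeletal muscle, 0.20 for mast cells, 0.24 for mesothelium, 0.091 for retinoic acid, -0.16 for distal epithelium, 0.071 for thyroid, thymus and oesophagus, -0.15 for liver and -1.31 for Y-linked genes, with shares of 4.35%, 1.64% and 0.725% within 1, 5 and 20 Mb. Keeping genes at 1 FPKM or more in a genotype gave 0.91 for mast cells and 0.11 for megakaryocytes, granulocytes and lymphocytes. Taking every listed gene whatever its status gave 55 lower genes, medians of 0.12 for skeletal muscle, 0.019 for thyroid, thymus and oesophagus, -0.15 for liver and 0.089 for Hox genes, and shares of 5.45%, 2.38% and 1.94%. Rescaling each genotype to 1 common sum multiplied wild type by 1.93 and knockout by 1.89, which also makes the pseudocount smaller against the values, and gave 118 higher and 61 lower genes and shares of 6.56% and 5.797% within 5 and 20 Mb. Scaling knockout alone by 0.948, to the wild-type sum of testable genes, gave 67 higher and 35 lower genes. This scaling and the next were chosen after seeing the data. Without the heart and skeletal muscle lists, 38 genes were higher. The Y-linked list has no value with X and Y left out. Depth is unknown, so no limit by counting can be given.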

Other observations

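The 12 genes that the authors' processing marked as having too much data all lie on the mitochondrial genome. They were left out of the main comparison, which kept genes with status OK. Taking every listed gene whatever its status did not leave them out, so the 55 lower genes counted there include such genes. These genes also entered the sums behind the rescaling to a common sum, with its factors of 1.93 and 1.89. They were 0.246 to 6514 FPKM in wild type, with mt-Nd4 at 1573 FPKM, Cytb at 953 FPKM and Cox2 at 6514 FPKM, and all 12 are listed at 0 in knockout. An exact 0 in such genes, which every cell uses, can be a failed estimate.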
